A study of Mus musculus with 24 samples.

Results

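The 7 genes examined here encode mitochondrial enzymes that break down the branched-chain amino acids valine and isoleucine: Acad8, Acadsb, Echs1, Hibch, Hibadh, Aldh6a1 and Hsd17b10. They were taken by gene symbol from the deposited expression table. All 7 had a row among its 23017 genes, and all 7 were among the 17263 genes tested after the weakly expressed genes were left out. PolyA RNA of brown adipose tissue was sequenced in 24 samples of C57BL/6J mice, which the series title describes as obese and insulin resistant. Of these, 6 received TZP (tirzepatide, a peptide that activates the receptors of the gut hormones GIP and GLP-1), 6 received LAGIPRA (an agonist of the GIP receptor with a long action), 6 received vehicle with pair feeding (PairFedVehicle) and 6 received vehicle (Vehicle). Pair-fed animals get only as much food as a treated group eats. The sources used here do not give which group set that amount, the doses, the length of treatment, the age or the diet. The labels do not say whether samples of a group came from separate animals, so the p-values below measure the spread between samples, which may be partly technical.

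Branched-chain amino acids are first stripped of their amino group and then of a carboxyl group by enzymes that valine, isoleucine and leucine share. The coenzyme A esters that result take separate routes. Acad8, isobutyryl-CoA dehydrogenase, takes the valine ester, and Acadsb, short/branched chain acyl-CoA dehydrogenase, takes the isoleucine ester. Echs1, enoyl-CoA hydratase, adds water on both routes and also in the oxidation of short-chain fatty acids. On the valine route Hibch then removes coenzyme A, Hibadh oxidises the 3-hydroxyisobutyrate that is set free, and Aldh6a1 turns the resulting semialdehyde into propionyl-CoA. On the isoleucine route Hsd17b10 oxidises the hydroxylated ester; the same protein is a subunit of the mitochondrial enzyme that processes the 5' ends of transfer RNAs. Brown adipose tissue is known to take up and oxidise branched-chain amino acids when it makes heat.

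The sequences before the start sites of 4 of the genes are shown because these 4 passed the threshold against Vehicle in unlike sets of groups, as described below. That alone does not show that the groups differ from each other in these genes. RefSeq's table of promoters (build GRCm38.p6) gave a window of 300 bases, 250 before the start and 50 after it, for all 7 genes. The 250 bases before the start are printed, on the strand of the gene. They are chr9:26999550-26999799 (minus strand) for Acad8, chr1:52844788-52845037 (plus strand) for Hibch, chr12:84451025-84451274 (minus strand) for the first of the 2 windows of Aldh6a1, and chrX:152001646-152001895 (plus strand) for Hsd17b10. RefSeq's gene span of Acad8 reaches to 26999571, so the printed Acad8 bases nearest the start, 26999550 to 26999571, lie inside the gene. Capitals mark matches on either strand to the CCAAT box (letters CCAAT, or ATTGG on the other strand) and to the GC box (letters GGGCGG, or CCGCCC on the other strand).
Acad8: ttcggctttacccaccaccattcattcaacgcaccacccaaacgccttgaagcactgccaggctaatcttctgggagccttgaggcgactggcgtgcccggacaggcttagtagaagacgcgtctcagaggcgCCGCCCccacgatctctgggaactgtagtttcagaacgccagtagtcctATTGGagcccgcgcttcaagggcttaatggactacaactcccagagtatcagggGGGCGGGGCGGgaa
Hibch: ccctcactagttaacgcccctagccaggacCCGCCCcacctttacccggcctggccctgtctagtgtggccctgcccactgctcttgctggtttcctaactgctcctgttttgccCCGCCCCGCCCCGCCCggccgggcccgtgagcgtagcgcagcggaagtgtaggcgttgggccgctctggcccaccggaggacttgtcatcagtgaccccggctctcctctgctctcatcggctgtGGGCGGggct
Aldh6a1: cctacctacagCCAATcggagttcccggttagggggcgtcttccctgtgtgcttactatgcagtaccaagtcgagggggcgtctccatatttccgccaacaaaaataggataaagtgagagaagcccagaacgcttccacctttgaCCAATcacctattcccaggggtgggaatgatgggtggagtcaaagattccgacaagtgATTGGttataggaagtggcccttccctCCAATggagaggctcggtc
Hsd17b10: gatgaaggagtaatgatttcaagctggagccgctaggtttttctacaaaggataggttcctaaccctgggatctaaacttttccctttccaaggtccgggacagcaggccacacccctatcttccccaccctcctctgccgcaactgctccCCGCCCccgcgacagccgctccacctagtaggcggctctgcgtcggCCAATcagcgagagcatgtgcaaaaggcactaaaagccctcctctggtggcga
The windows of 6 of the 7 genes held the GC box letters, all but Aldh6a1, against 35.7% of all 32851 windows in the table. CCAAT was found in the windows of 4 genes (Acad8, Hibadh, Aldh6a1 and Hsd17b10), against 37.4% of all windows. In Hibch, Acad8 and Acadsb some GC box matches overlap or adjoin each other. In Acad8 these matches are among the printed bases that lie inside the gene. Neither the core letters AAGGTCA of oestrogen-related receptors nor the core letters GCATGCG of NRF1, tried on both strands, were in any window of the 7 genes; 4.72% of all windows held the first and 3.58% the second. The share of C and G was 58.3% in the window of Acad8, 66.3% in Hibch, 57.7% in Hsd17b10, and 53.7% and 42.3% in the 2 windows of Aldh6a1, against a median of 52.7% over all windows.

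The deposited values were on a log scale, taken as log2 with an offset near 1 and brought to a common distribution by the authors. The markers of brown adipocytes were present in every library, with Ucp1, the heat-producing proton channel, between 14.70 and 15.91. Skeletal muscle markers averaged at least 4.75 in 21 libraries but were near absent in TZP 3 (1.26), PairFedVehicle 5 (0.948) and Vehicle 1 (1.16). A gene with a single read should sit at the low value that recurs most often in its library. This value of 1 read is larger in a shallower library, though the mix of cells can shape it too. Group means of this value were 1.32 ± 0.22 for TZP, 1.35 ± 0.25 for LAGIPRA, 1.15 ± 0.10 for PairFedVehicle and 1.04 ± 0.17 for Vehicle (SD, n = 6 each). The slope of a library's values on log2 transcript length was -0.066 ± 0.074 for TZP, 0.0096 ± 0.0191 for LAGIPRA, 0.013 ± 0.013 for PairFedVehicle and 0.044 ± 0.018 for Vehicle. TZP 3 to 6 had the 4 lowest slopes of all 24 libraries. In bulk tissue, fewer cells of a type and less RNA per cell cannot be told apart.

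Against Vehicle, TZP, LAGIPRA and PairFedVehicle each raised some of the 7 genes, and none of the 7 was called lower, or had a lower mean at an unadjusted p under 0.05, in any of these 3 comparisons (limma). A gene was called when its adjusted p from limma (Benjamini-Hochberg over all tested genes) was under 0.05. TZP raised Acad8 and Hsd17b10, 2 of the 7 genes, where 11.7% of all tested genes were called higher and 10.3% lower. LAGIPRA raised Acad8, Echs1, Hibch and Hibadh, 4 of 7, against 8.70% of all tested genes higher and 5.03% lower. PairFedVehicle raised Aldh6a1 and Hsd17b10, 2 of 7, against 4.96% higher and 3.66% lower. The 8 calls were also the cases in which all 6 samples of the group lay above the 6 Vehicle samples; 3.39% of tested genes did so for TZP, 3.16% for LAGIPRA and 2.41% for PairFedVehicle. The median log2 fold change of the 7 genes was 0.24 for TZP, 0.36 for LAGIPRA and 0.17 for PairFedVehicle, against 0.039 for TZP, 0.028 for LAGIPRA and 0.018 for PairFedVehicle over all tested genes. These 3 comparisons share the Vehicle samples. A gene called in one comparison and not in another is not shown to differ between them, and direct comparisons of these groups are given below.

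**Figure D1:**
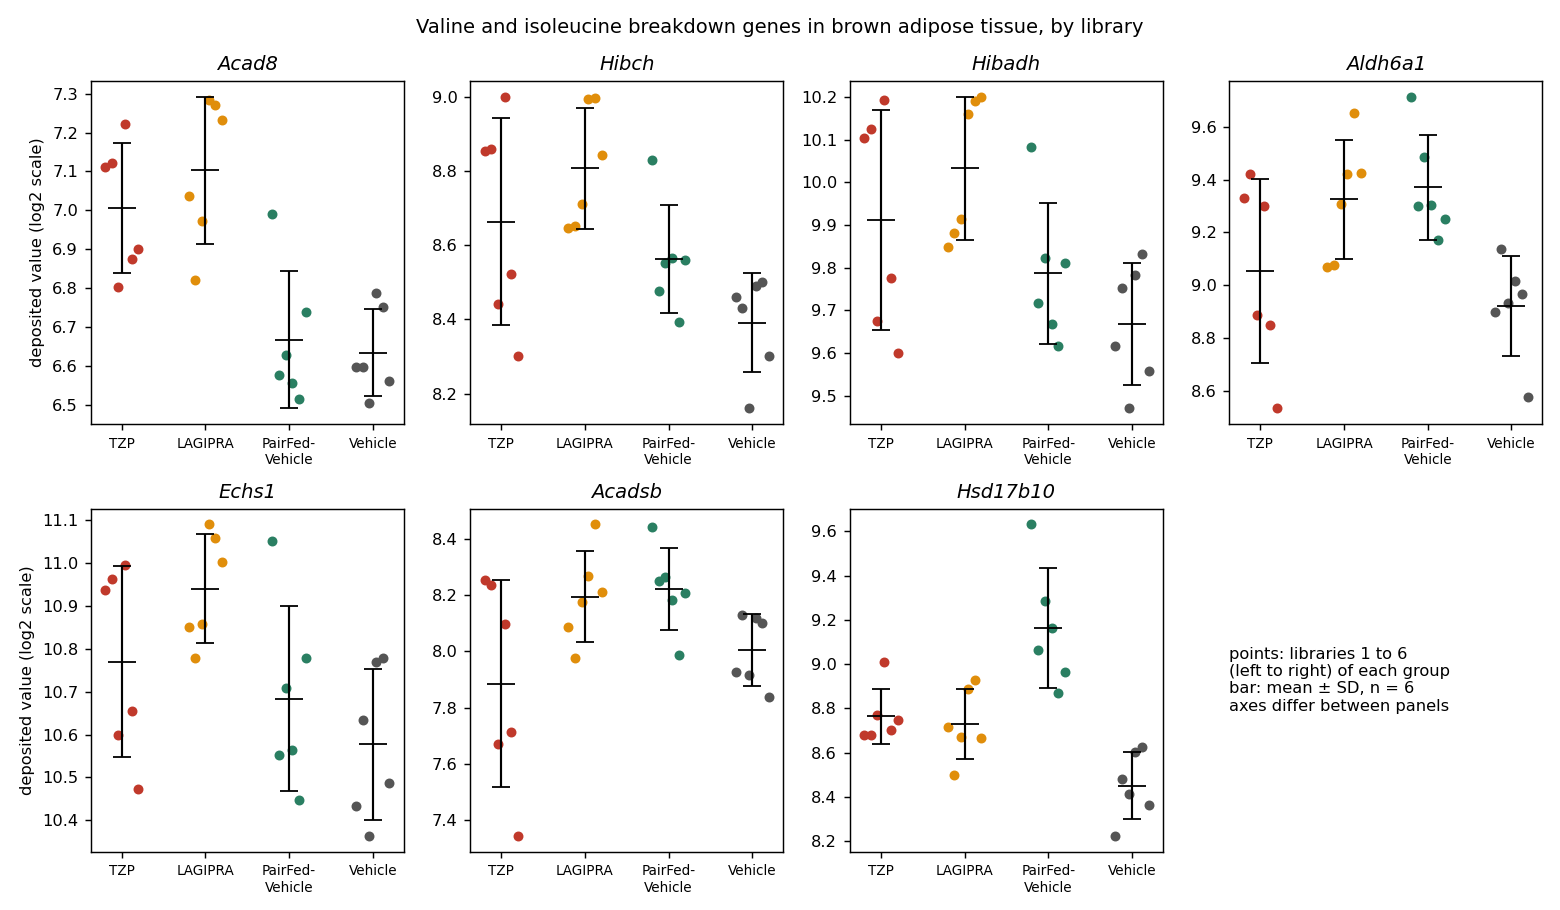
Deposited value (log2 scale, y axis) of each of the 7 genes in every library; points are libraries 1 to 6 of a group, the bar is the mean ± SD (n = 6), and the y axes differ between panels. Acad8 is high in TZP and LAGIPRA, while Hsd17b10 is highest in PairFedVehicle, at 8.87 to 9.63, with all 6 above every Vehicle library.

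Acad8, the first enzyme of the valine route after the shared steps, was higher with both drugs than in either vehicle group. Its value had a median of 7.01 in TZP (6.80 to 7.22), 7.14 in LAGIPRA (6.82 to 7.28), 6.60 in PairFedVehicle (6.52 to 6.99) and 6.60 in Vehicle (6.51 to 6.79). Every library of both drug groups lay above every Vehicle library, while 1 pair-fed library, PairFedVehicle 1, reached into the drug groups. The log2 fold change was 0.37 ± 0.10 (SE) for TZP against Vehicle (adjusted p = 0.00861, limma) and 0.47 ± 0.10 for LAGIPRA against Vehicle (adjusted p = 0.00682, limma), or 1.29-fold and 1.38-fold. Pair feeding gave 0.034 against Vehicle (95% interval -0.16 to 0.23). Set against PairFedVehicle, Acad8 was called higher in TZP (0.34, adjusted p = 0.0176, limma) and in LAGIPRA (0.44, adjusted p = 0.00399, limma). TZP and LAGIPRA, the neighbours at the top of the order, were not called different (-0.10, 95% interval -0.29 to 0.10), nor were PairFedVehicle and Vehicle at its foot. When the value of 1 read entered the fit as a covariate, the difference from Vehicle was 0.21 for TZP (adjusted p = 0.10) and 0.29 for LAGIPRA (adjusted p = 0.115, both limma), no longer called, while that from PairFedVehicle was still called for both drugs. With the length slope as a covariate the TZP difference from Vehicle was 0.41 (adjusted p = 0.123, limma) and that from PairFedVehicle 0.37 (adjusted p = 0.0772, limma), again not called. Calls numbered fewer over the whole table in this fit, with 0.834% of all tested genes higher for TZP against Vehicle and 3.89% against PairFedVehicle. The call of TZP against PairFedVehicle was lost without TZP 4 (adjusted p = 0.0514, limma).

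Hibch and Hibadh, which follow on the valine route, and Echs1 rose with LAGIPRA. The lowest LAGIPRA value of Hibch was 8.65 (median 8.78, highest 9.0) and the highest Vehicle value was 8.50 (median 8.45, lowest 8.16). Hibch rose by 0.42 ± 0.11 (SE) on the log2 scale, or 1.33-fold, with LAGIPRA (adjusted p = 0.0163, limma). Its values in TZP were between 8.30 and 9.0 (median 8.69) and those in PairFedVehicle were between 8.39 and 8.83 (median 8.56), both overlapping with Vehicle. The mean difference of TZP from Vehicle was 0.27 (adjusted p = 0.0701, limma) and that of PairFedVehicle 0.17 (adjusted p = 0.362, limma), neither called.

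Hibadh, the dehydrogenase of 3-hydroxyisobutyrate, had values of 9.60 to 10.19 in TZP (median 9.94), 9.85 to 10.20 in LAGIPRA (median 10.04), 9.62 to 10.08 in PairFedVehicle (median 9.76) and 9.47 to 9.83 in Vehicle (median 9.68). Echs1, the hydratase of both routes, had 10.47 to 10.995 in TZP (median 10.80), 10.78 to 11.09 in LAGIPRA (median 10.93), 10.45 to 11.05 in PairFedVehicle (median 10.64) and 10.36 to 10.78 in Vehicle (median 10.56). In both genes only the LAGIPRA libraries lay wholly above Vehicle, in Echs1 by a margin of less than 0.01. LAGIPRA raised Hibadh by 0.36 ± 0.11 (SE; adjusted p = 0.0278, limma) and Echs1 by 0.36 ± 0.11 (SE; adjusted p = 0.0286, limma), each 1.29-fold. Both calls were lost when any of 6 single libraries was left out (LAGIPRA 4, 5 or 6, or Vehicle 1, 3 or 6). They were also lost with the skeletal muscle marker mean as a covariate (0.34 for Echs1, adjusted p = 0.0531, and 0.35 for Hibadh, adjusted p = 0.0506, limma); the median log2 fold change of those markers for LAGIPRA against Vehicle was 1.88. All 3 calls of these genes were lost when the value of 1 read entered the fit (0.15 to 0.21, adjusted p = 0.252 to 0.388, limma). The order of group means was LAGIPRA, TZP, PairFedVehicle and Vehicle in Hibch, Hibadh and Echs1, and no neighbours in that order were called different. LAGIPRA was not called different from PairFedVehicle either. The log2 fold change was 0.24 for Hibch (adjusted p = 0.144), 0.25 for Hibadh (adjusted p = 0.138) and 0.26 for Echs1 (adjusted p = 0.123, all limma).

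Aldh6a1, the last of these enzymes on the valine route, had another order of group means. Its median was 9.09 in TZP (8.53 to 9.42), 9.36 in LAGIPRA (9.07 to 9.65), 9.30 in PairFedVehicle (9.17 to 9.71) and 8.95 in Vehicle (8.58 to 9.14). Only the pair-fed libraries lay wholly above Vehicle. Pair feeding raised it by 0.45 ± 0.14 (SE), or 1.37-fold (adjusted p = 0.0428, limma), a call that was lost in 10 of the 12 fits without 1 library. The LAGIPRA mean was 0.40 above Vehicle (adjusted p = 0.0520, limma) and the TZP mean 0.13 above Vehicle (adjusted p = 0.523, limma). Group means ran in the order PairFedVehicle, LAGIPRA, TZP and Vehicle, with no neighbours called different. The exons of Aldh6a1 share 1078 bases with those of Bbof1, a gene on the opposite strand, in the GENCODE M21 annotation, and the sources used here do not say whether the counting used strand. Bbof1 averaged 4.68 in TZP, 4.61 in LAGIPRA, 4.71 in PairFedVehicle and 4.22 in Vehicle; if strand was not used, reads of the 2 genes cannot be told apart. Echs1 shares 142 exon bases with Paox in the same way, which averaged 4.92 in TZP, 4.95 in LAGIPRA, 4.55 in PairFedVehicle and 4.49 in Vehicle.

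Acadsb, which starts the isoleucine route, was called in no comparison of the fit to all 24 samples. Its median was 7.90 in TZP (7.34 to 8.26), 8.19 in LAGIPRA (7.98 to 8.45), 8.23 in PairFedVehicle (7.99 to 8.44) and 8.01 in Vehicle (7.84 to 8.13). The TZP values were widely spread: libraries 3, 5 and 6 were at 7.67, 7.71 and 7.34, below every other library of the 24, and libraries 1, 2 and 4 at 8.10 to 8.26. The mean difference was -0.12 for TZP against Vehicle (95% interval -0.38 to 0.14) and -0.34 for TZP against PairFedVehicle (adjusted p = 0.0662, limma). The difference from PairFedVehicle was called when the value of 1 read entered the fit (-0.46, adjusted p = 0.00494, limma), with sample weights (-0.39, adjusted p = 0.0204, limma), and without TZP 1, TZP 2 or PairFedVehicle 5 (-0.41 to -0.39). The order of group means was PairFedVehicle, LAGIPRA, Vehicle and TZP, and no neighbours in it were called different. Without TZP 3 to 6, which stand apart in length slope, the difference from Vehicle was 0.24 (adjusted p = 0.196, limma) over the 2 TZP libraries left. Acadsb has the longest coding transcript of the 7 genes, 6081 bases, and Hsd17b10 the shortest, 992 bases.

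Hsd17b10, the later dehydrogenase of isoleucine, was highest in the pair-fed group and was raised there more than any other of the 7 genes in any comparison. Its median was 8.72 in TZP (8.68 to 9.01), 8.69 in LAGIPRA (8.50 to 8.93), 9.11 in PairFedVehicle (8.87 to 9.63) and 8.45 in Vehicle (8.22 to 8.62). Pair feeding raised it by 0.71 ± 0.10 (SE) on the log2 scale, or 1.64-fold (adjusted p = 0.000125, limma). The call held under each alternative listed in the closing section and in each of the 12 fits without 1 library. TZP raised it by 0.31 ± 0.10 against Vehicle (SE; adjusted p = 0.0346, limma). This call was lost without any one of 7 libraries (TZP 3, 4 or 6, or Vehicle 1, 2, 3 or 6). It was also lost when the value of 1 read entered the fit (0.23, adjusted p = 0.197, limma) or the length slope did (0.18, adjusted p = 0.527, limma). With the length slope, 0.834% of all tested genes were called higher for TZP against Vehicle. The LAGIPRA mean was 0.28 above Vehicle (adjusted p = 0.0738, limma). Both drug groups were called lower than PairFedVehicle, with a log2 fold change of -0.40 for TZP (adjusted p = 0.0115, limma) and -0.44 for LAGIPRA (adjusted p = 0.00806, limma), while the drug groups were not called different from each other (0.035, 95% interval -0.18 to 0.25). Without TZP 3 to 6 the difference of TZP from PairFedVehicle was -0.48 (adjusted p = 0.0678, limma).

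**Figure D2:**
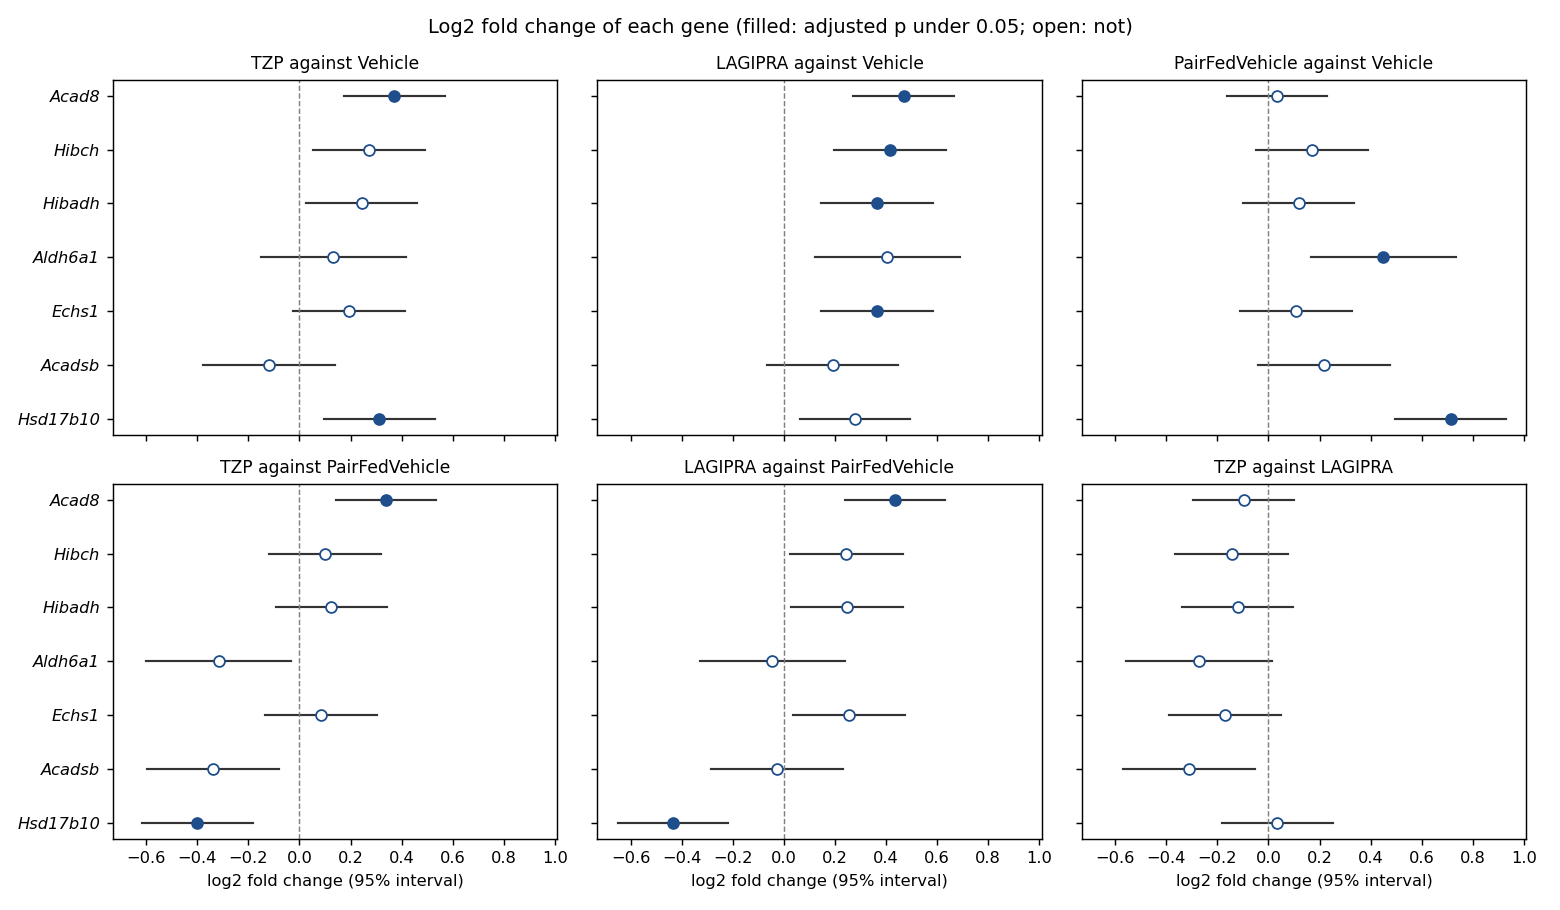
Log2 fold change (x axis) of each gene in the 6 comparisons, with 95% intervals from limma; filled points have an adjusted p under 0.05. Against Vehicle all filled points lie right of 0; against PairFedVehicle the filled points are Acad8 on the right and Hsd17b10 on the left for both drugs.

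Against PairFedVehicle, Acad8 and Hsd17b10 were the genes called, in opposite directions. With TZP 1 of 7 genes was higher and 1 lower, where 8.39% of all tested genes were higher and 8.02% lower. With LAGIPRA 1 of 7 was higher and 1 lower as well, where 7.30% were higher and 4.55% lower. At an unadjusted p under 0.05 (limma), 1 was higher and 3 were lower for TZP, and 4 were higher and 1 lower for LAGIPRA. The median over the 7 genes was 0.09 for TZP and 0.24 for LAGIPRA, against -0.0024 for TZP and -0.012 for LAGIPRA over all tested genes. These comparisons share the pair-fed samples. Between TZP and LAGIPRA none of the 7 was called by limma and 1, Acadsb, had an unadjusted p under 0.05, with 0.0521% of all tested genes called higher and 0.348% lower in TZP; 6 of the 7 differences were below 0, Acadsb furthest at -0.31 (95% interval -0.57 to -0.05, adjusted p = 0.211, limma). Without TZP 3 to 6 all 7 differences changed sign, so that 6 of the 7 were above 0.

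The difference between Acad8 and Hsd17b10 within a library shows how the pair-fed group stands apart; the pair was chosen after its values were seen, so no test is given. Acad8 minus Hsd17b10 averaged -1.76 ± 0.16 in TZP, -1.63 ± 0.10 in LAGIPRA, -2.50 ± 0.17 in PairFedVehicle and -1.82 ± 0.10 in Vehicle (log2 scale, SD, n = 6 each). The highest pair-fed library, at -2.23, lay below the lowest library of the other groups, TZP 3 at -1.97. In all 6 pair-fed libraries Hsd17b10 was the highest and Acad8 the lowest of the 7 genes relative to each gene's mean over the 24 libraries. For comparison, Acadsb minus Aldh6a1 averaged -1.17 ± 0.05 in TZP, -1.13 ± 0.08 in LAGIPRA, -1.15 ± 0.09 in PairFedVehicle and -0.92 ± 0.11 in Vehicle. Hibch minus Aldh6a1 averaged -0.39 ± 0.12 in TZP, -0.52 ± 0.11 in LAGIPRA, -0.81 ± 0.09 in PairFedVehicle and -0.53 ± 0.18 in Vehicle, with the pair-fed libraries lowest again but overlapping with Vehicle. These differences say nothing of which gene has more transcripts, and they are not adjusted for the slope on transcript length, which varied between libraries. The longest coding transcript has 2885 bases for Acad8 and 992 for Hsd17b10. What part length has in their difference was not tested.

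**Figure D3:**
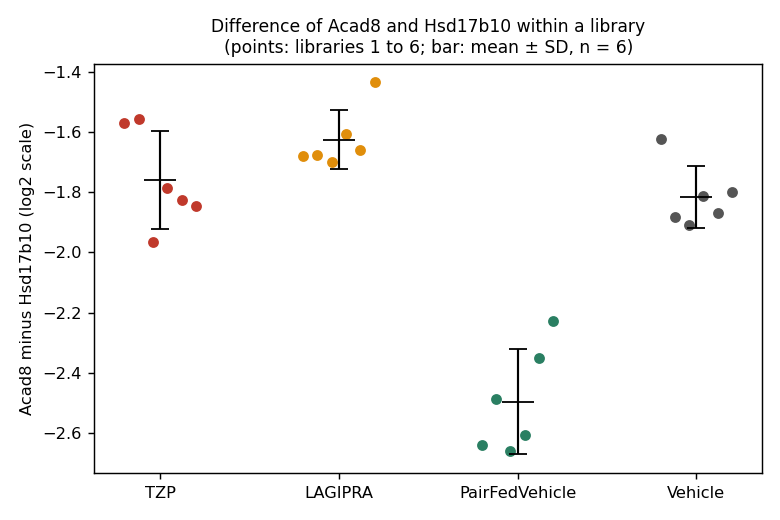
Acad8 minus Hsd17b10 within each library (y axis, log2 scale) by group; points are libraries 1 to 6 and the bar is the mean ± SD (n = 6). The pair-fed libraries lie between -2.66 and -2.23 and overlap with no other group.

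Across the 24 libraries Acad8, Hibch and Hibadh moved closely with Echs1. Pearson's r over the 24 samples was 0.97 for Hibch and Hibadh, 0.97 for Echs1 and Hibadh, 0.88 for Acad8 and Echs1, and 0.90 for Acadsb and Aldh6a1, against 0.18 for Acad8 and Hsd17b10. With the group means removed, r over the 21 pairs ran from 0.45 (Acadsb and Hsd17b10) to 0.95 (Echs1 and Hibadh), with a median of 0.86. The libraries share depth, the mix of cells and the common normalization, so these are descriptions. The tested genes outside the branched-chain pathway whose values were most like the mean of the 7 genes over the 24 samples included Acadl, long-chain acyl-CoA dehydrogenase (r = 0.98), Phyh, a peroxisomal enzyme of phytanic acid breakdown (r = 0.97), and Tspan18, a membrane protein of the tetraspanin family (r = 0.95).

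The mean of the 7 genes, each centred on its own mean over the 24 libraries, was -0.0029 ± 0.23 in TZP, 0.15 ± 0.16 in LAGIPRA, 0.055 ± 0.18 in PairFedVehicle and -0.20 ± 0.13 in Vehicle (log2 scale, SD, n = 6 each). Inside the drug groups it moved with the value of 1 read and, in the opposite direction, with the macrophage marker mean. In TZP, libraries 1, 2 and 4, with a value of 1 read of 1.45 to 1.53, had a mean of 0.17, 0.19 and 0.25. Libraries 3, 5 and 6, at 0.96 to 1.29, had -0.18, -0.14 and -0.31. In LAGIPRA, libraries 4, 5 and 6 (1.38 to 1.68) had 0.29, 0.35 and 0.22, and libraries 1, 2 and 3 (1.12 to 1.15) had 0.027, -0.056 and 0.076. The highest mean of all, 0.38, was that of PairFedVehicle 1, with a value of 1 read of 1.26. With this value as a covariate none of the 7 genes was called for either drug against Vehicle by limma; at an unadjusted p under 0.05, 1 was higher and 1 lower for TZP and 2 were higher for LAGIPRA. In this fit calls numbered fewer over the whole table too, with 4.69% of all tested genes higher and 9.77% lower for TZP, and 0.145% higher and 0.116% lower for LAGIPRA. Hsd17b10 was still called for PairFedVehicle (0.68, adjusted p = 0.000231, limma). What part depth or the mix of cells has in these differences was not tested.

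**Figure D4:**
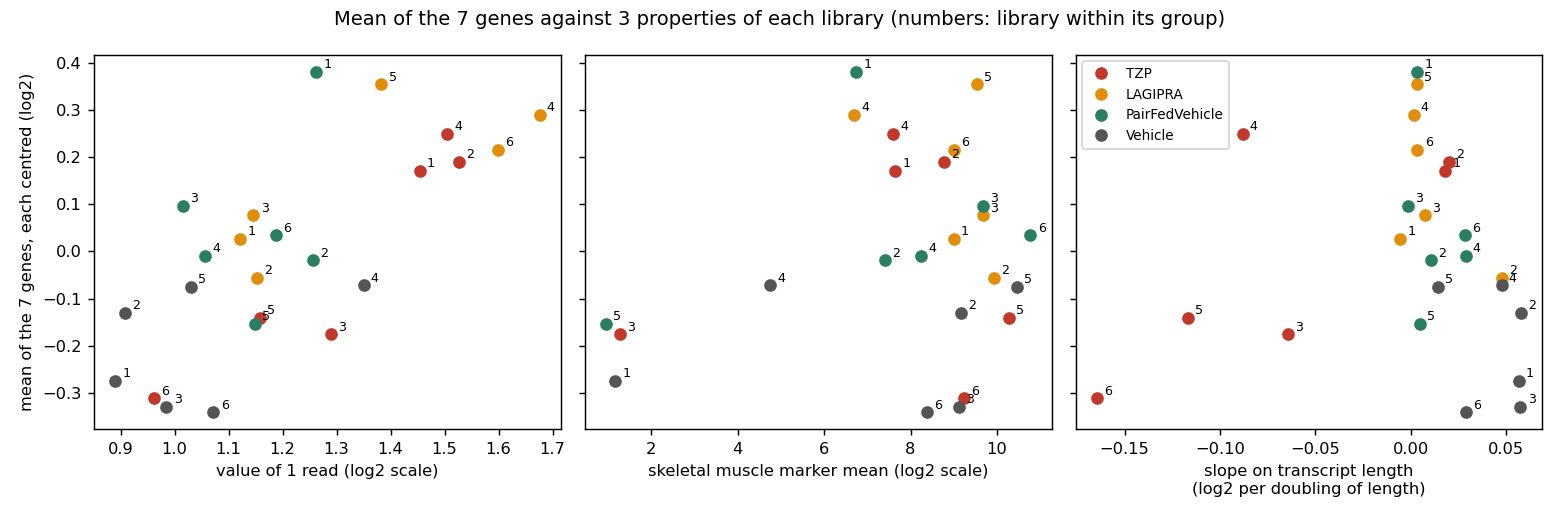
Mean of the 7 centred genes (y axis, log2 scale) against the value of 1 read, the skeletal muscle marker mean and the slope on transcript length (x axes), 1 point per library, coloured by group and numbered within it. The 5 libraries with the highest value of 1 read, which are TZP 1, 2 and 4 and LAGIPRA 4 and 6, all have a mean above 0.

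Markers of other cell types moved with some groups. Of 8 brown adipocyte markers, 2 were called higher and 1 lower in TZP, 4 higher in LAGIPRA and 3 higher in PairFedVehicle, each against Vehicle; their mean was 10.5 ± 0.46 in TZP, 10.7 ± 0.14 in LAGIPRA, 10.6 ± 0.22 in PairFedVehicle and 10.3 ± 0.23 in Vehicle. Of the 4 white adipocyte markers that were tested, 1 was lower in TZP, 0 in LAGIPRA and 1 in PairFedVehicle, with means over the list of 4.27 to 4.505 in TZP, 4.16 to 4.63 in LAGIPRA, 3.62 to 4.57 in PairFedVehicle and 4.16 to 4.72 in Vehicle. Of 6 macrophage markers, 1 was lower in TZP and 3 in LAGIPRA, with means of 6.92 to 7.81 in TZP, 6.80 to 7.75 in LAGIPRA, 7.03 to 8.24 in PairFedVehicle and 7.25 to 8.26 in Vehicle. TZP also had 5 of 6 endothelial and 5 of 5 erythroid markers lower than Vehicle, where 10.3% of all tested genes were lower. Of the endothelial markers, 1 was higher and 1 lower in LAGIPRA, and 1 higher and 1 lower in PairFedVehicle, each against Vehicle. The endothelial means were 7.26 to 7.82 in TZP, 7.94 to 8.06 in LAGIPRA, 7.96 to 8.15 in PairFedVehicle and 7.92 to 8.15 in Vehicle. The erythroid means were 10.32 to 11.91 in TZP, 12.27 to 13.14 in LAGIPRA, 10.91 to 13.50 in PairFedVehicle and 11.62 to 13.02 in Vehicle. Against PairFedVehicle, TZP had 4 of 6 endothelial markers lower, 1 brown adipocyte marker lower, and 1 white adipocyte marker higher and 1 lower. LAGIPRA had 1 white adipocyte marker higher than PairFedVehicle. Compared with LAGIPRA, TZP had 3 of 5 erythroid and 1 of 6 endothelial markers lower, where 0.348% of all tested genes were lower. None of the 12 skeletal muscle markers was called in any comparison by limma, and 0 had an unadjusted p under 0.05. Their means ran from 1.26 to 10.28 in TZP, 6.70 to 9.93 in LAGIPRA, 0.95 to 10.78 in PairFedVehicle and 1.16 to 10.47 in Vehicle. Without the 3 libraries that nearly lack these markers, 1 of the 7 genes was called for TZP against Vehicle (Acad8), 2 for LAGIPRA (Acad8 and Hibch) and 1 for PairFedVehicle (Hsd17b10). Over all tested genes in that fit, 8.42% were called higher for TZP, 4.95% for LAGIPRA and 3.79% for PairFedVehicle. With all 24 samples these shares were 11.7% for TZP, 8.70% for LAGIPRA and 4.96% for PairFedVehicle. The differences that lost their call there were 0.27 for Hsd17b10 in TZP, 0.33 for Echs1 and 0.35 for Hibadh in LAGIPRA, and 0.49 for Aldh6a1 in PairFedVehicle, with 3 fewer samples in the fit. The part of these cell types in the results was not tested.

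The other genes of branched-chain breakdown were 26, of which 25 were tested; Abat was too weakly expressed. Against Vehicle, TZP raised 7 and lowered none, LAGIPRA raised 16 and lowered none, and PairFedVehicle raised 4 and lowered 1 (Bcat1). Over all tested genes 11.7% were higher for TZP, 8.70% for LAGIPRA and 4.96% for PairFedVehicle, and 3.66% were lower for PairFedVehicle. At an unadjusted p under 0.05, 1 of the 25 was lower for each drug (limma). Their median log2 fold change was 0.22 for TZP, 0.33 for LAGIPRA and 0.052 for PairFedVehicle, against 0.039 for TZP, 0.028 for LAGIPRA and 0.018 for PairFedVehicle over all tested genes. Mcee, the methylmalonyl-CoA epimerase on the way of propionyl-CoA to the citric acid cycle, had the smallest p for both drugs, 0.62 ± 0.09 for TZP (SE; adjusted p = 0.000428, limma) and 0.51 ± 0.09 for LAGIPRA (SE; adjusted p = 0.00455, limma). Next came Klf15, a transcription factor known to raise branched-chain breakdown genes in muscle, for TZP (0.96, adjusted p = 0.00220, limma) and Mccc2, a subunit of the leucine enzyme methylcrotonyl-CoA carboxylase, for LAGIPRA (0.41, adjusted p = 0.0113, limma). Klf15 was also called higher for LAGIPRA (0.80, adjusted p = 0.0143, limma) and for PairFedVehicle (0.75, adjusted p = 0.0187, limma), and TZP was not called different from PairFedVehicle in it (0.22, adjusted p = 0.509, limma). For PairFedVehicle, Pccb, a subunit of propionyl-CoA carboxylase, was higher (0.36, adjusted p = 0.0148, limma). Against PairFedVehicle, TZP raised 5 and LAGIPRA 9 of the 25 (8.39% and 7.30% of all tested genes), with none called lower by limma and 1 lower for each drug at an unadjusted p under 0.05. When the value of 1 read entered the fit, the LAGIPRA calls against Vehicle numbered 0 of 25 by limma (8 higher and 1 lower at an unadjusted p under 0.05), and those of TZP 4 of 25 (3 higher and 1 lower).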

How the data were processed

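RNA was isolated with TRIzol and an RNeasy lipid kit and polyA-selected, per the labels' protocols. The submitters' processing notes name cutadapt 1.9.1 and GSNAP without their roles. The sources used here do not give the genome build, annotation, read counter or strandedness. The deposited values of 23017 genes were used as log2 values; the scale, with an offset near 1, was inferred from the values, which ran from -0.50 to 22.35. An offset understates fold changes of weakly expressed genes. The libraries had nearly equal quantiles (lower quartile 2.88 to 2.95, upper quartile 6.21) and were not normalized further. Read totals were not analysed here, so no counting intervals are given.

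The lowest 25% of genes by mean (5754, all under 2.86) were not tested. The other 17263 were tested with limma 3.58.1 in R 4.3.3: 1 mean per group over all 24 samples, a mean-variance trend, and Benjamini-Hochberg adjustment over all tested genes, two-sided, threshold 0.05. The script was tested on simulated data. The members, the gene lists, the markers and the tests were chosen with earlier results of these data known. All 7 members were named; of the other pathway genes, the 2 with the smallest p in each comparison with Vehicle; and the 4 tested genes outside the pathway with the highest r with the mean of the 7, out of 13082 compared, with predicted models passed over. The results of 2 genes that this rule gave are not reported here. Length slopes used the longest GENCODE M21 transcript, known for 15295 tested genes (88.6%). No transcript of another gene was 95% identical to a member's coding transcript over 200 bases or more. Same-numbered samples were not paired, as the closing section describes. The alternatives were other filters and thresholds, no trend, fits of 2 groups, sample weights, another normalization, the replicate block, covariates and removal of libraries. Plots used matplotlib 3.10.9 under Python 3.11.15.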

Additional observations from a re-analysis of the deposited data

Results flagged for a closer look

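Of the 28 sets of 6 libraries (7 genes in 4 groups), 1 held a library far from the others by Dixon's test. Hsd17b10 in TZP 4 was 9.0087, which is 0.24 above the next TZP library, and that gap was 0.72 of the range of the group, above the critical ratio of 0.625. Chance flags about 1 in 20 such sets. Without TZP 4 the call of Hsd17b10 for TZP against Vehicle was lost.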

How the results depend on the processing

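Among the called differences, those of Hsd17b10 for PairFedVehicle against Vehicle, and of Acad8 and Hsd17b10 for LAGIPRA against PairFedVehicle, kept their direction and stayed called at 0.05 under each alternative run. Over the 7 genes and 6 comparisons, 465 of 525 values under alternatives other than leaving out 1 library kept their direction and side of the threshold, 29 lost a call, 13 gained one and 18 changed sign; for the 504 values without 1 library these numbers were 454, 30, 12 and 8.

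The number of the 7 genes called for TZP against Vehicle was 2. It was 0 when the value of 1 read was a covariate, 0 with the length slope and 1 at a threshold of 0.01. Without the 3 libraries lowest in muscle markers it was 1, without TZP 3 to 6 it was 3, and without 1 library it was 1 to 3. With the length slope, 0.834% of all tested genes were called higher and 0.342% lower, against 11.7% and 10.3% without a covariate. The number for LAGIPRA against Vehicle was 4. It fell to 0 with the value of 1 read, 2 with the muscle marker mean as a covariate, 1 at 0.01 and 2 without the 3 libraries. It rose to 6 in a fit of those 2 groups, 6 with sample weights, 5 with a filter at the median mean value and 5 with the length slope. Aldh6a1 was called higher in each of the fits that raised it. The number was 2 to 6 without 1 library. For PairFedVehicle against Vehicle it was 2, and 1 with no filter, with no mean-variance trend, with the replicate block, with the value of 1 read, at 0.01 and without the 3 libraries, and 1 to 2 without 1 library. For TZP against PairFedVehicle it was 2, and 1 in a fit of those 2 groups, 3 with sample weights and 4 with the value of 1 read (Acadsb and Aldh6a1 lower in addition). It was 1 with the length slope, 0 at 0.01, 1 without TZP 3 to 6 and 1 to 3 without 1 library. For LAGIPRA against PairFedVehicle it was 2, and 4 with sample weights and 2 to 3 without 1 library. For TZP against LAGIPRA it was 0 throughout. The cause of these changes was not tested.

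Signs turned for differences that were not called. With the value of 1 read these were Aldh6a1 for TZP against Vehicle (-0.079), Acadsb for LAGIPRA against Vehicle (-0.038), Acad8 for PairFedVehicle against Vehicle (-0.035), and Echs1 (-0.020) and Hibch (-0.0073) for TZP against PairFedVehicle. With the length slope they were Acadsb for TZP against Vehicle (0.25) and, for TZP against LAGIPRA, Hibadh (0.0022) and Hsd17b10 (-0.057). Without TZP 3 to 6 they were Acadsb for TZP against Vehicle (0.24), Acadsb (0.023) and Aldh6a1 (0.0047) for TZP against PairFedVehicle, and for TZP against LAGIPRA Acad8 (0.013), Acadsb (0.050), Echs1 (0.010), Hibch (0.049), Hibadh (0.081), Aldh6a1 (0.050) and Hsd17b10 (-0.050). Without 1 library, Acad8 for PairFedVehicle against Vehicle lay between -0.031 and 0.064, Acadsb for LAGIPRA against PairFedVehicle between -0.079 and 0.017, Aldh6a1 for the same pair between -0.11 and 0.023, and Hsd17b10 for TZP against LAGIPRA between -0.014 and 0.076.

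Same-numbered samples were not treated as pairs: over 36 of them r ran from -0.60 to 0.38 (median -0.00038), 12 were over 0.1, and in 6 the own number gave the highest r. For LAGIPRA and Vehicle 5 of 6 were over 0.1 and the other was -0.044, and in 3 of 6 the own number was highest. With the replicate block, Aldh6a1 for PairFedVehicle against Vehicle was no longer called (0.45, adjusted p = 0.0552, limma), and no other call of the 7 genes changed. The fits without the 3 libraries lowest in muscle markers and without TZP 3 to 6 were chosen after seeing the data. The SE of these log2 fold changes, 0.095 for Acad8 to 0.14 for Aldh6a1, limits what 6 samples a group can resolve.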
